A study of Rattus norvegicus with 4 samples.

Results

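The cytosolic heat shock proteins and co-chaperones were followed as 10 genes, chosen by symbol for what their proteins do, with earlier results of these data known: Hsf1, Hsp90aa1, Hsp90ab1, Hspa8, Hsph1, Dnajb1, Dnaja1, Bag3, Cryab and Hspb1. Each symbol stood on 1 row of the deposited table of 32883 rat genes, and all 10 were abundant enough to be tested, as were 12316 genes in all. The cells were HSC-T6, an immortalised line of rat hepatic stellate cells, the liver cells that turn into collagen-producing myofibroblasts when the organ is injured. Total RNA was sequenced from 2 libraries of untreated cells and 2 libraries of cells whose treatment the labels call GRK1, which the series title spells out as ginsenoside RK1, a saponin of heat-processed ginseng, written Rk1 here. The labels state neither dose nor duration nor vehicle, and the untreated libraries are labelled only as having had no treatment. Every value comes from 1 immortalised line and n = 2 libraries per group. Whether replicate libraries were grown as separate cultures is not stated, so the p-values reflect library-to-library spread, part or all of which may be technical.

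Heat shock proteins are chaperones: they hold unfolded proteins, refold them with the help of ATP, or hand them over for degradation. HSP70 proteins take up clients delivered by J-domain proteins (the HSP40 family), release them when exchange factors of the BAG and HSP110 families remove ADP, and pass many signalling proteins on to HSP90. Small heat shock proteins bind unfolding proteins without ATP. HSF1, the main transcription factor of the heat shock response, is held inactive by chaperones and, when unfolded proteins accumulate, forms trimers that bind heat shock elements, inverted repeats of the unit GAA, in the promoters of these genes. In stellate cells the small heat shock protein alpha B-crystallin, encoded by Cryab, is known to appear when the cells become activated.

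Of the 10 genes, Bag3 rose with Rk1, Cryab, Hsp90ab1 and Hspb1 fell, and 6 did not pass the test at a Benjamini-Hochberg adjusted p under 0.05. Over all tested genes, 22.0% were called by the same rule, 11.5% as higher and 10.5% as lower with Rk1, so 4 called of 10 is to be read against about 2 of every 10. With upper-quartile factors in place of TMM the balance over all genes turned, from 1422 higher and 1289 lower to 1198 higher and 1556 lower, while the same numbers of the 10 genes were called, 1 higher and 3 lower. The median log2 fold change of the 10 genes was -0.09, beside 0.0011 over all tested genes. The changes were modest in size apart from those of Cryab, which fell 1.80-fold, and Bag3, which rose 1.37-fold. The groups did not overlap in 6 of the 10 genes, while 63.0% of all tested genes showed the same separation.

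**Figure D1:**
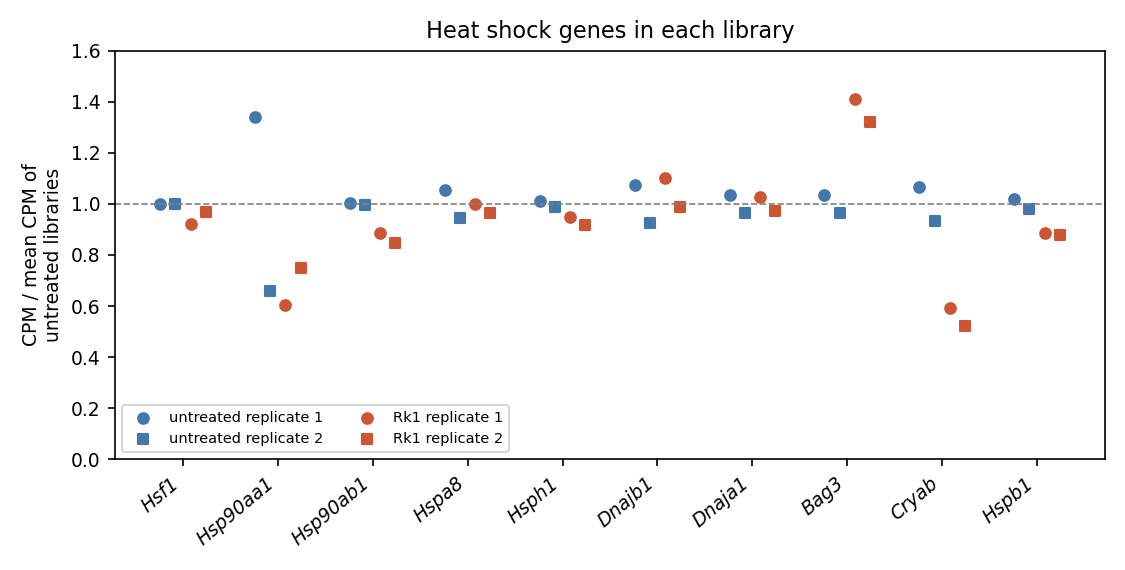
CPM (counts scaled to library size) of each of the 10 genes in each of the 4 libraries, divided by the mean of the 2 untreated libraries (dashed line at 1); blue marks are untreated and red marks Rk1, circles replicate 1 and squares replicate 2. Both Rk1 libraries lie above the untreated ones for Bag3 and well below them for Cryab, and untreated replicate 1 stands apart for Hsp90aa1.

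Library totals ran from 18008586 to 20430930 counts, and 3 counts in a library, the most that a count of 0 allows for counting error alone, correspond to 0.148 to 0.167 CPM. The 10 genes together held 0.365% and 0.354% of the untreated counts and 0.334% and 0.322% of the Rk1 counts. Of the 10 stellate cell and myofibroblast markers listed for a check of the label, 8 were abundant enough to be tested. Lrat, a marker of the quiescent stellate cell, and Reln were at 0 in all 4 libraries. The summed level of that list was 22760 to 23870 CPM untreated and 15650 to 15720 CPM with Rk1, and its part in the changes below was not tested. Col1a1 alone was at 12485 and 11615 CPM untreated and at 8065 and 7969 CPM with Rk1. Col1a1, Col3a1, Sparc, Spp1 and Acta2 were called lower. Acta2 was low throughout, at 3.60 and 3.08 CPM untreated (73 and 56 counts) and 0.891 and 0.329 CPM with Rk1 (16 and 6 counts). Vim, Pdgfrb and Des were not called, with Des at a log2 fold change of 0.37, so the fall of the sum is not a fall of every marker. Hepatocyte, macrophage and liver endothelial lists summed to at most 0.330, 1.95 and 0.165 CPM in any library. The cholangiocyte list was at 7.29 to 9.07 CPM untreated and 2.58 to 2.78 CPM with Rk1, nearly all of it Sox9. Mitochondrial genes took 3.11% and 3.24% of the untreated counts and 3.60% and 3.68% of the Rk1 counts. In RNA from a whole culture, fewer cells of a kind and less RNA per cell cannot be told apart.

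RefSeq promoter windows on assembly GRCr8, which cover 250 bases before to 50 after an annotated start, were found for 7 of the 10 genes. Hsf1, Hsp90aa1 and Cryab had no entry. The windows were searched for the paired units GAANNTTC and TTCNNGAA and for both longer forms, in which a further GAA or TTC unit follows after NN so that 3 units alternate in orientation. Each paired form reads the same on both strands, the 3-unit forms are each other's reverse complement, and each 3-unit form contains both paired forms. A paired form was found in 6 of the 7 windows, beside 15.9% of 33469 windows of the same length. A 3-unit form was found in Hspa8, Hsph1 and Dnaja1, beside 0.798% of all windows. These 10 genes were picked as heat shock genes, so such letters in their promoters describe the class and say nothing about Rk1.

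The 250 bases before the start are printed for the genes that changed and had an entry (Bag3, Hspb1 and Hsp90ab1) and for Hspa8 and Hsph1, which held 3-unit forms and were not called, so that both kinds can be read side by side. Letters in capitals match 1 of the 4 forms, all others are in lower case, and each strand is that of GRCr8.
Bag3, chr1:192533210-192533459, plus strand: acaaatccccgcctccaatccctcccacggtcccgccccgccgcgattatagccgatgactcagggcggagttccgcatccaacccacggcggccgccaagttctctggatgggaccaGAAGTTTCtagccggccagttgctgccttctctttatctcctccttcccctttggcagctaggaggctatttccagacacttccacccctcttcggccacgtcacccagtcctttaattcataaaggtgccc
Hspb1, chr12:26432302-26432551, minus strand: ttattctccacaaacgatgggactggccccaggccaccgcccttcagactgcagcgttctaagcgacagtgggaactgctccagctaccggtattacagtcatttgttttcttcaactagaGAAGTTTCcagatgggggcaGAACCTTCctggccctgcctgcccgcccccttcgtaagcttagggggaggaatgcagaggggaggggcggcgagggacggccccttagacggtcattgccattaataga
Hsp90ab1, chr9:22930173-22930422, plus strand: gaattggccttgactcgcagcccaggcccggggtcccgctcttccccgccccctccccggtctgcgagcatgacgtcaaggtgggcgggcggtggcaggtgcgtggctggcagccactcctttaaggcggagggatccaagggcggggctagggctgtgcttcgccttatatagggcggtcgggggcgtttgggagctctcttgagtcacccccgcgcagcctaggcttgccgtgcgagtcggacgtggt
Hspa8, chr8:50080264-50080513, plus strand: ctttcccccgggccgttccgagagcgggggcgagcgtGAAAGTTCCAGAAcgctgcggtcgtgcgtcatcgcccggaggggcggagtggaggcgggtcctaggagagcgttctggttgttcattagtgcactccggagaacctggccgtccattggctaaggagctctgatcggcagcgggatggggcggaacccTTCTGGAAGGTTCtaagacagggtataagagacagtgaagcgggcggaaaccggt
Hsph1, chr12:10427118-10427367, plus strand: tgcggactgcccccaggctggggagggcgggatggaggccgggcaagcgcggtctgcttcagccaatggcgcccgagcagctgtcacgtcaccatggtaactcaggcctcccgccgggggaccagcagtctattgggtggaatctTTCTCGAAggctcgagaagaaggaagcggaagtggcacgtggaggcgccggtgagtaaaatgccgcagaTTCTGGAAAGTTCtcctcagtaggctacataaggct
Counted from the start, with -1 the base before it, the Hspa8 window held GAAAGTTCCAGAA at -213 to -201 and TTCTGGAAGGTTC at -55 to -43. Hsph1 held TTCTGGAAAGTTC at -36 to -24 and a separate paired form at -105 to -98. Bag3 held 1 paired form, at -132 to -125, and Hspb1 held 2, at -129 to -122 and -109 to -102. In Dnaja1 the 3-unit form GAACTTTCCAGAA lay past the start, at 10 to 22, with a separate paired form at -181 to -174. Dnajb1 held 2 paired forms, at -11 to -4 and at 18 to 25. No match was found in the Hsp90ab1 window, which says only that these letters are not in this stretch.

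Hsf1, the regulator, was at 58.8 and 58.9 CPM in the untreated libraries and at 54.1 and 57.0 CPM with Rk1. Both Rk1 libraries were lower than both untreated ones, by less than the test could call (log2 fold change -0.08 ± 0.05 SE, adjusted p = 0.28), and the 95% interval of the fold ran from 0.871 to 1.02. The gene (ENSRNOG00000021732) lies on chromosome 7 at 117538523 to 117565478, plus strand, in Rnor_6.0, the build of the deposited positions. Transcript level does not report the activity of HSF1, which is controlled on the protein. Among 4 other heat shock factors and regulators that could be tested, Hsf2, a second heat shock factor, was at 67.5 and 72.8 CPM untreated and 74.9 and 75.2 CPM with Rk1 (adjusted p = 0.22). Hsf2bp, which encodes a binding partner of HSF2, was the 1 gene of that list called, lower by 1.52 ± 0.45 on the log2 scale (adjusted p = 0.049) from 19 and 12 counts to 5 and 5 counts. Its call was lost when any 1 library was left out (adjusted p = 0.100 to 0.301) and without the filter on low counts (adjusted p = 0.052).

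Bag3 was the member that rose. It encodes an exchange factor for HSP70 that joins HSP70 to small heat shock proteins and directs damaged, often actin-bound, proteins to autophagy. Its level was 44.1 and 41.1 CPM in the untreated libraries, from 895 and 747 counts, and 60.1 and 56.3 CPM with Rk1, from 1079 and 1026 counts. The 2 Rk1 libraries were the highest, with no overlap between groups, and the rise was 1.37-fold (log2 fold change 0.45 ± 0.06 SE, 95% interval 0.31 to 0.59, adjusted p = 0.0024). The call held in all 14 alternatives run, with log2 fold changes from 0.39 to 0.50. Bag3 (ENSRNOG00000020298) lies on chromosome 1 at 199941161 to 199965191, plus strand, and no annotated gene overlaps it. Hspb8, which encodes the small heat shock protein that works as a complex with BAG3, was at 45.5 and 44.7 CPM untreated and 46.6 and 45.5 CPM with Rk1 (0.03 ± 0.05, adjusted p = 0.71), so the partner was not called as changed.

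Of the 11 tested genes of the list for other cytosolic HSP70 proteins, BAG genes and exchange factors, Hspa4l rose, or 9.09% called beside the 22.0% over all tested genes, and no gene was called lower by edgeR, where 0 were lower also at an unadjusted p under 0.05, by DESeq2 and by limma-voom. The list median was 0.0068. Hspa4l, an HSP110-type exchange factor, was at 7.69 and 8.90 CPM untreated and at 12.8 and 12.7 CPM with Rk1 (0.62 ± 0.12, adjusted p = 0.0094). Bag1 was at 76.9 and 77.7 CPM untreated and 70.5 and 73.2 CPM with Rk1 (adjusted p = 0.15). Hsph1, the HSP110 gene whose promoter is printed above, was at 224 and 218 CPM untreated and at 210 and 203 CPM with Rk1. Its groups did not overlap, but the difference did not pass (-0.10 ± 0.04, adjusted p = 0.15), and the interval of its fold, 0.869 to 1.003, leaves room for a fall of up to that size.

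Cryab showed the largest change of the 10 genes. Its level was 40.1 and 35.1 CPM in the untreated libraries, from 815 and 638 counts, and 22.3 and 19.6 CPM with Rk1, from 401 and 357 counts. The lowest untreated library was well above the highest Rk1 library. The fall was 1.80-fold (log2 fold change -0.85 ± 0.09 SE, 95% interval -1.07 to -0.62, adjusted p = 0.0011), and the log2 value lay between -0.95 and -0.74 in all 14 alternatives, each of which called it. Cryab (ENSRNOG00000010524) lies on chromosome 8 at 55178289 to 55182545, plus strand. Its nearest neighbour, Hspb2, another small heat shock protein gene, lies 471 bases away on the opposite strand and had 5 and 3 counts untreated and 0 and 2 counts with Rk1, too few to test.

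The genes whose pattern over the 4 libraries lay nearest to that of Cryab were sought among 7521 genes of at least 20 CPM, by the distance between their centred log2 CPM values. Among the nearest were Celsr2, Tpm1, Avpr1a and Rcn3, at distances of 0.0846, 0.139, 0.149 and 0.152. Tpm1 encodes a tropomyosin of actin filaments. Tpm1, for example, was at 323 and 321 CPM untreated and 185 and 163 CPM with Rk1. They were chosen for this likeness over only 4 libraries, so their own changes are a description.

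Hspb1 encodes HSP27, a small heat shock protein that also binds actin filaments and restrains lipid peroxidation. It was at 140 and 134 CPM in the untreated libraries and at 121 and 120 CPM with Rk1. The groups did not overlap and the fall was 1.13-fold (log2 fold change -0.18 ± 0.05 SE, adjusted p = 0.028), the smallest among the called members. The call was lost by DESeq2 (adjusted p = 0.068) and without untreated replicate 1 (0.139), Rk1 replicate 1 (0.086) or Rk1 replicate 2 (0.096), though the sign stayed the same. Hspb1 (ENSRNOG00000023546) lies on chromosome 12 at 23839399 to 23841049, minus strand. The ratio of Cryab counts to Hspb1 counts was 0.287 and 0.261 untreated and 0.184 and 0.163 with Rk1. The Cryab level thus fell relative to Hspb1 in both Rk1 libraries, by a factor of 0.632, but 4 libraries cannot give an exact two-sided permutation p under 0.333, which is the value found.

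Among the other genes listed as small heat shock proteins, 3 of 8 could be tested, Hspb6, Hspb8 and Hspb11. None was called by edgeR, DESeq2 or limma-voom, and 0 had an unadjusted p under 0.05. Hspb6, also called HSP20 and abundant in smooth muscle, was at 21.9 and 20.6 CPM untreated and 18.3 and 19.0 CPM with Rk1 (-0.19 ± 0.08, adjusted p = 0.14). The lens crystallin gene Cryaa and the genes Hspb3 and Hspb9 had no count in any library, where a level of up to 0.167 CPM could go undetected.

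**Figure D2:**
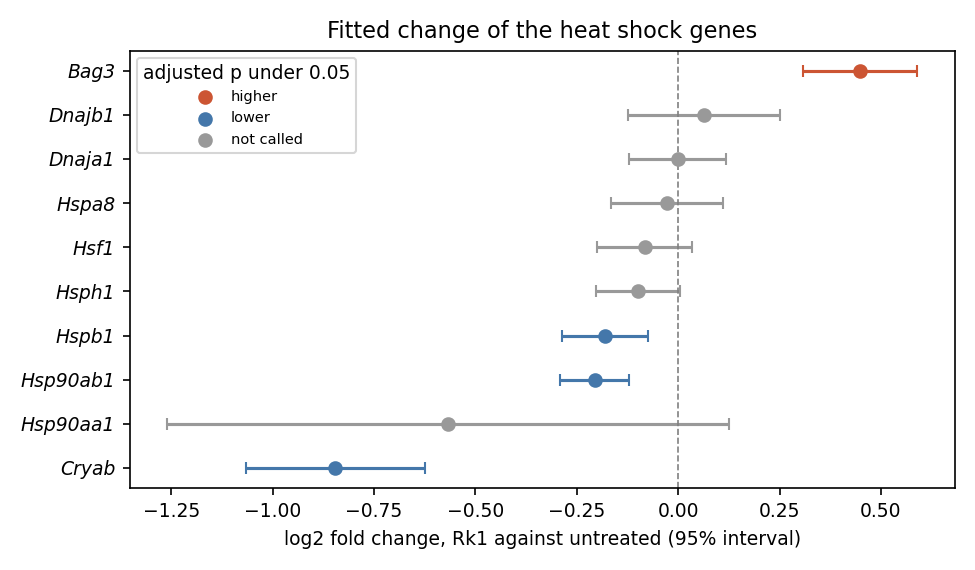
Fitted log2 fold change of each of the 10 genes, Rk1 against untreated, with its 95% interval from edgeR's quasi-likelihood fit; red is called higher, blue called lower and grey not called at an adjusted p under 0.05. Bag3 at 0.45 and Cryab at -0.85 lie farthest from 0 among the called genes, and the widest interval is that of Hsp90aa1.

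Hsp90ab1 encodes HSP90 beta, the constitutive cytosolic HSP90, and was the most abundant of the 10 genes, holding 57.6% to 61.3% of their counts. Its level was 2187 and 2169 CPM in the untreated libraries and 1929 and 1847 CPM with Rk1. The groups were well apart and the fall was 1.15-fold (log2 fold change -0.21 ± 0.04 SE, 95% interval -0.29 to -0.12, adjusted p = 0.0075). All 14 alternatives called it, with adjusted p up to 0.045. Hsp90ab1 (ENSRNOG00000019834) lies on chromosome 9 at 17817721 to 17823243, plus strand.

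Hsp90aa1, which encodes HSP90 alpha, the form induced by heat shock, gave no usable direction. It had 408 and 180 counts in the untreated libraries and 163 and 205 counts with Rk1, or 20.1, 9.89, 9.07 and 11.2 CPM. Untreated replicate 1 stood at about double the other 3 libraries, which lay close together. Counting error alone put untreated replicate 1 between 18.2 and 22.1 CPM (exact 95% Poisson interval), so the gap of 1.02 on the log2 scale to untreated replicate 2 was wider than counting error, and 98.5% of tested genes had a smaller gap between the untreated libraries. The fitted log2 fold change was -0.57 ± 0.30 (adjusted p = 0.21). It was 0.04 without untreated replicate 1 (adjusted p = 0.90) and -0.99 without untreated replicate 2 (adjusted p = 0.0022), so 1 library decided both the sign and the call.

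Rows described as copies of Hsp90aa1 may bear on that value, though they were found by description and no sequences were compared. The table also holds LOC680491, a processed pseudogene on chromosome 13 described as similar to heat shock protein 1, alpha, with 480 and 385 counts untreated and 365 and 383 with Rk1. A further row described as HSP 90-alpha, LOC103692716, had 13 to 20 counts. Together the counts on these copies came to 121% to 233% of those on Hsp90aa1 itself. A read that matches a gene and its copy equally well can be given to either or dropped, and nothing in the labels says how such reads were handled, so the level of Hsp90aa1 is uncertain. With the copies added, a choice made after the values were seen, the log2 fold change was -0.27 (adjusted p = 0.23).

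Hspa8 encodes HSC70, the constitutive cytosolic HSP70. It was at 412 and 368 CPM untreated and at 389 and 376 CPM with Rk1. The Rk1 libraries lay between the untreated ones, and no difference was called (-0.03 ± 0.06, adjusted p = 0.78). The 95% interval of the fold ran from 0.892 to 1.08. It reflects the spread between these libraries and not reads shared with copies. For Hspa8 the 3 rows described as similar to heat shock protein 8 carried 23.7% to 25.9% as many counts as the gene. LOC680121, the most abundant of them and annotated as protein coding, had 1673 and 1222 counts untreated and 1407 and 1255 with Rk1. With the copies added the log2 fold change was -0.03 (adjusted p = 0.82). Hspa8 (ENSRNOG00000034066) lies on chromosome 8 at 44990014 to 44993179, plus strand, and 3 small nucleolar RNA genes of at most 10 counts lie inside it.

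**Figure D3:**
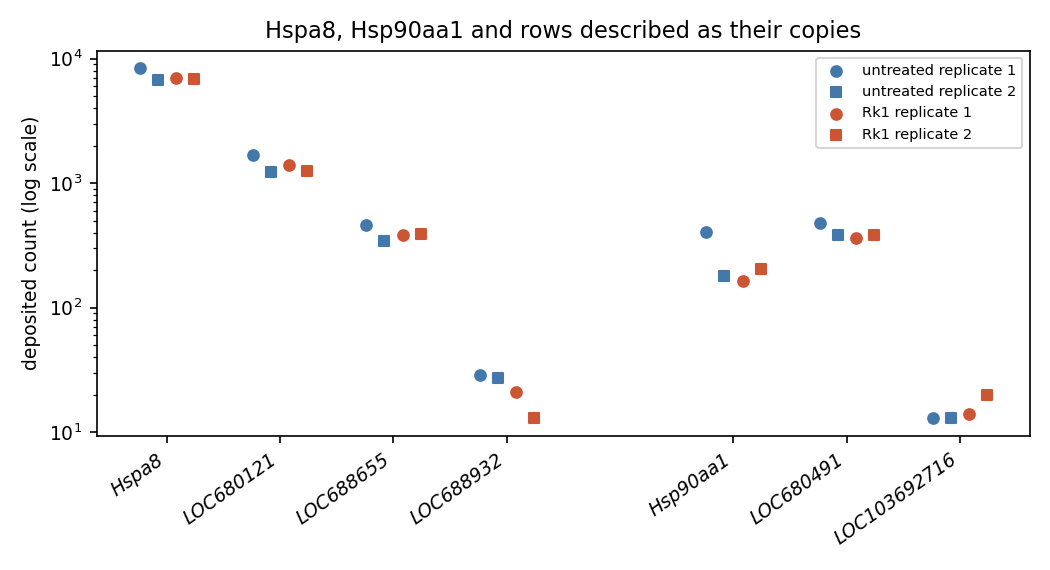
Deposited counts, on a log scale, of Hspa8 and Hsp90aa1 and of the rows described as their copies, in each of the 4 libraries (blue untreated, red Rk1, circles replicate 1, squares replicate 2). LOC680491 carries 365 to 480 counts, more than Hsp90aa1 in each library, and untreated replicate 1 is the highest for Hspa8, LOC680121, LOC688655 and Hsp90aa1.

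The heat-inducible HSP70 genes were close to silent. Hspa1b, which encodes an HSP70 made in large amounts on heat shock, had 11 and 4 counts untreated and 8 and 7 counts with Rk1, or 0.220 to 0.542 CPM, and did not reach the level needed for a test. A row described as heat shock 70 kDa protein 1A, LOC108348108, had 1 count over all 4 libraries. The 2 genes are near-identical, so their low counts carry the same uncertainty as that of Hsp90aa1. Hspa2, another HSP70 gene, was at 7.73 and 8.14 CPM untreated and at 9.13 and 8.56 CPM with Rk1 (adjusted p = 0.38).

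The J-domain genes did not differ detectably. Dnaja1, the HSP70 partner that helps fold and sort many cytosolic proteins, was at 388 and 362 CPM untreated and at 384 and 365 CPM with Rk1. The groups overlapped almost completely (log2 fold change -0.0012 ± 0.05, adjusted p = 0.99), with a 95% interval of the fold from 0.920 to 1.09. Dnajb1, HSP40 itself and strongly heat-inducible, was at 164 and 142 CPM untreated and at 168 and 151 CPM with Rk1 (0.06 ± 0.08, adjusted p = 0.62), and here the 2 libraries of a group differed by more than the group means did. Its interval, 0.917 to 1.19, was wider. Of 12 other J-domain genes listed as cytosolic, 0 were called by edgeR, with 3 at an unadjusted p under 0.05, and 0 by DESeq2 or limma-voom. Dnajb4 came nearest, at 77.5 and 73.1 CPM untreated and 68.9 and 65.1 CPM with Rk1 (-0.17 ± 0.05, adjusted p = 0.065), and passed with the replicate number as a block (adjusted p = 0.030), with robust dispersions (0.044) and with upper-quartile scaling (0.036).

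Levels can be compared between genes only per length, here as CPM per kilobase of exon. In untreated cells the order was Hsp90ab1 (818), Dnaja1 (233), Hspa8 (201), Hspb1 (156), Dnajb1 (70.2), Hsph1 (64.2), Cryab (30.1), Hsf1 (24.4), Bag3 (17.6) and Hsp90aa1 (5.44). Of these neighbours, Dnajb1 and Hsph1 overlapped between libraries, at 65.0 to 75.4 and 63.4 to 65.0, and the other 8 pairs did not. With Rk1, Bag3 stood at 23.2 and 24.8 CPM per kilobase, overlapping Hsf1 at 22.4 and 23.6, while Cryab had gone from above both to below both at 15.7 and 17.9. The top 6 places were the same in both groups. Reads lost to copies would lower Hsp90aa1 and Hspa8 in this order.

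Part of the variation lay within groups. In untreated replicate 1 the level was higher than in untreated replicate 2 for 9 of the 10 genes, the exception being Hsf1, whereas 49.8% of all tested genes were higher there. In Rk1 replicate 1 it was higher than in Rk1 replicate 2 for 8 of the 10 genes, beside 50.9% of all tested genes. The gap in the untreated pair was 0.21 on the log2 scale for Dnajb1, 0.20 for Cryab, 0.16 for Hspa8 and 0.10 for Bag3 and Dnaja1, beside a median size of 0.0792 over all tested genes. The same replicate number does not mean a shared culture or day in the labels, and no test was made of these gaps.

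Among cytosolic partners of HSP90 and in the chaperonin, more genes were called lower than higher. Of 17 tested HSP90 co-chaperone genes, 5 fell and 1 rose, with a median of -0.14, and of 14 genes of the TRiC chaperonin (which folds actin and tubulin) and of prefoldin (which feeds it), 4 fell and 1 rose, with a median of -0.14. These are 35.3% and 35.7% called, beside 22.0% over all tested genes. Cacybp, which encodes a partner of HSP90 and of a ubiquitin ligase, fell from 341 and 368 CPM to 260 and 249.4 CPM (-0.48 ± 0.05, adjusted p = 9.4e-04), and this call held in every alternative run. Fkbp4, the immunophilin FKBP52 that activates steroid receptors, fell by 0.19 ± 0.04 (adjusted p = 0.023), but not without untreated replicate 1 (0.105) or Rk1 replicate 2 (0.107). Fkbp5, its antagonist FKBP51 and a glucocorticoid target, rose from 209 and 195 CPM to 254 and 241 CPM (0.29 ± 0.05, adjusted p = 0.0077). The chaperonin subunits Cct6a and Cct5 both fell by 0.22 ± 0.04 (adjusted p = 0.0089 and 0.012), Cct5 not without untreated replicate 2 (adjusted p = 0.063), and the prefoldin subunit Pfdn6 rose by 0.23 ± 0.05 (adjusted p = 0.014). Pfdn6 was not called by DESeq2 (adjusted p = 0.097), without either untreated library (0.074 for replicate 1 and 0.070 for replicate 2) or without Rk1 replicate 1 (0.060). The number of falls varied with the libraries used. With any 1 library left out, 2 co-chaperone genes fell, and the chaperonin list had 2 falls when that was untreated replicate 1 or Rk1 replicate 2, 1 when it was untreated replicate 2 and 5 when it was Rk1 replicate 1.

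The chaperones of other compartments were set beside the cytosolic ones. Of 17 endoplasmic reticulum (ER) chaperone genes, 12 fell, or 70.6% against the 10.5% lower over all tested genes, with a median of -0.35, and 11 or 12 fell when any 1 library was left out. None of the ER genes was called higher, also at an unadjusted p under 0.05, by edgeR, and DESeq2 and limma-voom called 0 higher. Hsp90b1, the ER paralog of HSP90 (GRP94), was at 1830 and 1791 CPM untreated and at 1213 and 1241 CPM with Rk1 (-0.56 ± 0.04, adjusted p = 1.1e-04). Hspa5, the ER paralog of HSP70 (BiP), was at 1820 and 1773 CPM untreated and at 1229 and 1194 CPM with Rk1 (-0.57 ± 0.04, adjusted p = 1.2e-04). These changes can be read within a library as ratios of counts, in which library size cancels. Hsp90b1 to Hsp90ab1 stood at 0.837 and 0.826 untreated and 0.629 and 0.672 with Rk1, a change by a factor of 0.782. Hspa5 to Hspa8 stood at 4.42 and 4.81 untreated and 3.16 and 3.18 with Rk1, a change by a factor of 0.687. Bag3 to Hspa8 went from 0.107 and 0.112 to 0.154 and 0.150. In each ratio the groups did not overlap. Where the ratio held an ER paralog, that paralog had the lower relative level in both Rk1 libraries. The exact two-sided permutation p was 0.333 for each of the 4 ratios computed, the smallest that 4 libraries allow, and 0.333 after Benjamini-Hochberg adjustment. The ratios were chosen after the values were seen.

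Of 10 mitochondrial chaperone genes, Hspd1 and Hspe1, which encode the chaperonin HSP60 and its lid HSP10, fell by 0.18 ± 0.04 and 0.23 ± 0.05 (adjusted p = 0.016 and 0.017), and the list median was 0.04. The 2 calls are 20% of the list, near the 22.0% over all tested genes. Both calls were lost without untreated replicate 2 (adjusted p = 0.064 and 0.073) or Rk1 replicate 1 (0.074 and 0.065), and that of Hspd1 also without untreated replicate 1 (0.073). The genes of this list were not called higher by edgeR (1 at an unadjusted p under 0.05), nor by DESeq2 or limma-voom.

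**Figure D4:**
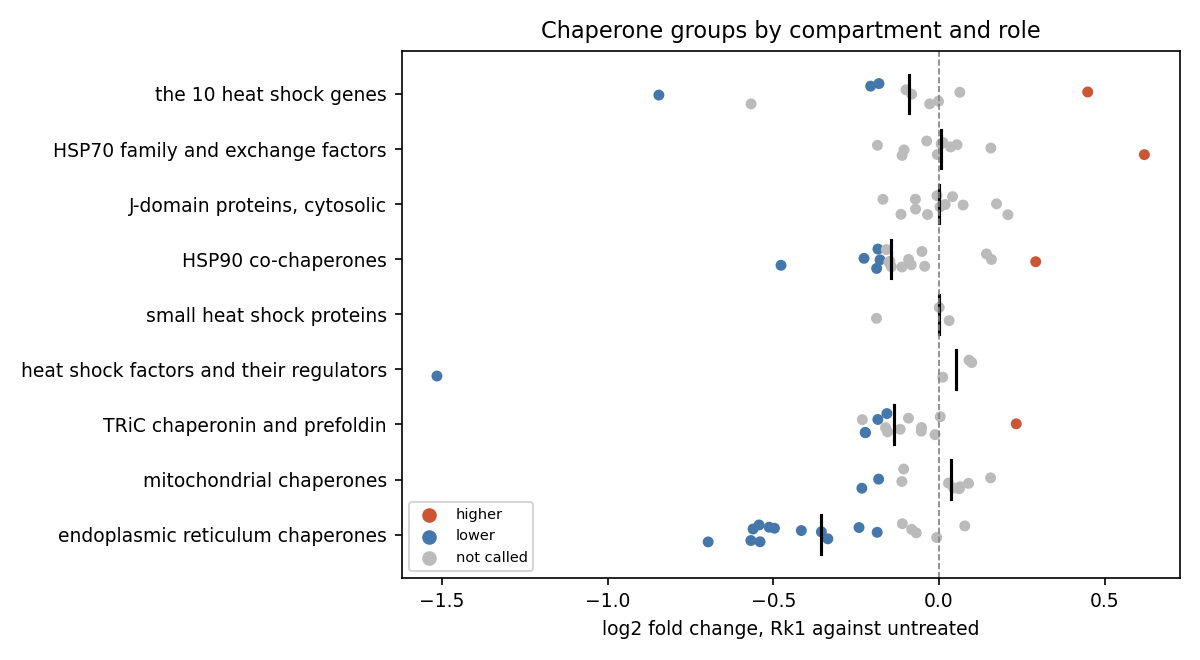
Log2 fold change of each tested gene, Rk1 against untreated, for the 10 heat shock genes and 8 lists of other chaperones; each point is a gene, red called higher, blue called lower, grey not called, and the black bar is the list median. The ER chaperones lie lowest, with a median of -0.35, and the medians of the cytosolic lists lie between -0.14 and 0.05.

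A last list held 17 other genes that HSF1 is known to induce on heat shock, some of which also stand in the lists above. Of 15 tested, 2 rose and 5 fell, or 46.7% called beside 22.0% over all tested genes (11.5% higher and 10.5% lower), with a median of -0.11. Hspa4l and Jmjd6, which encodes a hydroxylase of nuclear proteins, rose, Jmjd6 from 72.4 and 66.1 CPM to 94.2 and 79.2 CPM (0.32 ± 0.09, adjusted p = 0.036). The Jmjd6 call was lost without untreated replicate 2 (adjusted p = 0.130) or Rk1 replicate 1 (0.125). Serpinh1, the collagen chaperone HSP47 of the ER, fell from 2596 and 2607 CPM to 1703 and 1725 CPM (-0.60 ± 0.03, adjusted p = 6.0e-05), and Cacybp, Hspd1, Hspe1 and Ahsa1, the activator of the HSP90 ATPase, were the other 4 that fell. With 1 library left out, 3 fell when this was untreated replicate 1, and 2 fell and 1 rose when it was untreated replicate 2 or Rk1 replicate 1. When it was Rk1 replicate 2, 4 rose. Of this list and the 10 genes followed here together, 3 genes rose, Bag3, Hspa4l and Jmjd6, and 8 fell, Cryab, Hspb1, Hsp90ab1, Serpinh1, Cacybp, Ahsa1, Hspd1 and Hspe1. The 10 genes had 40% called and this list 46.7%, beside 22.0% over all tested genes. Both sets were chosen with earlier results of these data known. The calls of Hspb1, Hspd1, Hspe1, Jmjd6 and Ahsa1 did not hold in every alternative, and that of Ahsa1 was lost by DESeq2.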

How the data were processed

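RNA from 4 libraries was measured, 2 untreated and 2 treated with Rk1, grouped by their titles. The file deposited by the authors holds raw, unnormalised counts for each Ensembl gene, with exon lengths and Rnor_6.0 positions per the file headers. HISAT2 and HTSeq are named in the submitters' processing notes; versions, strand setting and the treatment of multiply matching reads are not stated there. Genes passing edgeR's filterByExpr (minimum count 10, minimum total 15) were scaled by TMM (factors 0.994 to 1.01) and tested in edgeR 4.0.16 by the two-sided quasi-likelihood F-test of group, with 2 residual degrees of freedom and Benjamini-Hochberg adjustment over 12316 genes at 0.05. The p-values and 95% intervals use the total degrees of freedom, the 2 residual ones plus prior ones that edgeR estimates across genes. CPM use the scaled totals, and a standard error is the log2 fold change over the square root of F. Replicate libraries were not duplicates of each other (chi-square of 4.47 and 4.52 per degree of freedom).

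Every member is named, and of each list up to 2 called genes per direction with the smallest adjusted p (the nearest one where none was called), plus the 5 genes patterned most like the member with the smallest adjusted p, of which 1 is not reported here. Any other gene was picked once its values were known. Members and lists were chosen with earlier results of these data known. Promoter sequences are RefSeq's on GRCr8, matched by symbol. The steps were also run on simulated data that gave every gene the same dispersion, so that run does not set an error rate for these data. Alternatives were DESeq2 1.42.0, limma-voom 3.58.1, robust dispersions, other scalings and filters, the replicate number as a block, no mitochondrial genes, a stricter threshold, and each library left out.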

Additional observations from a re-analysis of the deposited data

How the results depend on the processing

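Bag3, Cryab and Hsp90ab1 kept their sign and their call in all 14 alternatives, and Hsf1 and Hsph1 were uncalled with the same sign in all 14. Hspb1 fell by 0.19 without passing by DESeq2, and with 1 library left out its log2 fold change ran from -0.22 to -0.15, passing only without untreated replicate 2. With 1 library left out, Hsp90aa1 ran from -0.99 to 0.040, Hspa8 from -0.113 to 0.057, Dnajb1 from -0.046 to 0.18 and Dnaja1 from -0.057 to 0.051, and Dnaja1 was at 0.0050 by library totals alone. Members called numbered 3 to 5 with 1 library left out and 3 or 4 otherwise. All genes called numbered 1712 by DESeq2 (859 higher, 853 lower), 1226 at an adjusted p under 0.01 (665 higher, 561 lower), and 1710 to 2046 with 1 library left out (824 to 1110 higher, 859 to 936 lower), where fewer samples enter the fit. The lone library of a group is then assumed to vary like the other group.

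By list, genes called in either direction went as follows. HSP90 co-chaperones had 3 by DESeq2, 2 at an adjusted p under 0.01 and 3 with any 1 library left out. The chaperonin and prefoldin list had 3 by DESeq2, 8 with upper-quartile factors, 1 at an adjusted p under 0.01 and 1 to 5 with 1 library left out. Heat shock factors had 0 by DESeq2 (which gave Hsf2bp no adjusted p), without a filter, at a minimum count of 50 (where Hsf2bp was not tested), at an adjusted p under 0.01 and with any 1 library left out. Cytosolic J-domain genes had 1 with robust dispersions, with upper-quartile factors and with the replicate block, and 0 to 1 with 1 library left out. Mitochondrial chaperones had 0 at an adjusted p under 0.01 and 0 to 2 with 1 library left out, and other HSF1-induced genes had 3 at an adjusted p under 0.01 and 3 to 9 with 1 library left out. The cause of these moves was not tested. ER chaperone and HSP70 family counts stayed within 1.5 times.

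Replicate numbers are shared between groups, but nothing says that they pair the samples, and deviations of same-numbered libraries correlated at 0.0592 across genes. With the replicate block 3214 genes and 4 members were called, and the block changed no member's call. Scaling moved the median of all genes by at most 0.0275 on the log2 scale. Hspa1b and 5 small heat shock protein genes had too few counts to test at this depth, and the cause of their low counts was not tested.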
